A study of Mus musculus with 6 samples.

Results

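Ribosome biogenesis and RNA polymerase I genes were examined in epithelial cells taken directly from the mouse jejunum, with 55 genes chosen by symbol. A probe set that names the gene alone measured 53 of them, out of 19933 genes on the array, and where several did, the 1 with the highest mean was used. Of the other 2, Ppan was read only by a probe set that also names B130055M24Rik, and Noc2l was not analysed here. The 3 transgenic mice, TRE-MSI2::R26-M2rtTA, carried, per the labels, a tetracycline-responsive MSI2 transgene together with the M2rtTA transactivator at Rosa26. The 3 control mice, R26-M2rtTA, carried the transactivator alone. Both genotypes had doxycycline in their drinking water for 24 hours, so the transactivator and the drug are common to all 6 mice. Rosa26 is active in most cell types, so the transgene need not have been induced in epithelial cells alone. MSI2 is an RNA-binding protein of the Musashi family. RNA of each mouse went onto its own Affymetrix Gene 1.0 ST array, and the small number of arrays limits the precision. Strain and age are not given in the labels used here.

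Levels are the authors' log2 expression values, and differences are transgenic minus control. Msi2, the gene the transgene is named for, measured 11.23, 10.58 and 11.44 in the arrays labelled transgenic, against 11.30, 9.53 and 9.32 in those labelled control. Control replicate 1 thus lay among the arrays labelled transgenic, and the log2 fold change of 1.03 ± 0.55 (SE) did not pass in limma (adjusted p = 0.257, and 0.00958 without that array). The paralog Msi1 measured 13.44, 12.82 and 13.53 in the arrays labelled transgenic, against 7.20, 7.97 and 7.62 in those labelled control, and separated the labels, at 50.7-fold (log2 fold change 5.66 ± 0.26, adjusted p = 0.000818). The Musashi gene that differed clearly was therefore not the one in the transgene's name, and whether a label is wrong was not tested. All directions below are therefore between arrays as labelled. The epithelial markers Epcam and Cdh1 were at 12.60 to 12.87 and 12.42 to 12.86 in the 6 arrays. Cdh1 was itself called higher (limma log2 fold change 0.32 ± 0.08, adjusted p = 0.0432). Other epithelial markers moved in both directions, as given below. Array medians over all probe sets lay between 6.42 and 6.46. In bulk samples such as these, fewer cells of a type and less RNA per cell cannot be told apart.

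Ribosomes are built in the nucleolus. RNA polymerase I transcribes the long precursor of the ribosomal RNAs, small nucleolar ribonucleoproteins (snoRNPs) guide its chemical modification, and successive assembly factors fold and cleave it into the small and the large subunit. Many of the genes concerned are textbook targets of the transcription factor MYC, and in the intestine ribosome production is a feature of the dividing cells of the crypts more than of the mature cells of the villi.

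The ribosome biogenesis genes were higher almost throughout in the arrays labelled transgenic. They were chosen with earlier results of these data known, so the shares of all genes set beside them are descriptive. Of the 53 measured genes 52 had a higher mean, against 54.2% of all genes, with a median log2 fold change of 1.10 (2.14-fold), against 0.02 over all genes tested. The difference was at least 2-fold in 33 genes, against 4.19% of all genes. At an adjusted p under 0.05 (limma, Benjamini-Hochberg over the whole table), 21 rose and 1, Ubtf, fell, where 8.97% of all genes rose and 9.65% fell. Another 21 had adjusted p values between 0.05 and 0.1. With the replicate number of the titles as a block, 47 rose and 1 fell, where 12.7% of all genes rose and 13.1% fell. The labels do not say what a shared number means, and this block was adopted from correlations between these same arrays. P values from the blocked fit, here and below, are therefore no independent support. The groups did not overlap for 35 of the genes with higher means and for Ubtf, against 19.5% and 17.5% of all genes in those directions. An exact two-sided permutation test on 3 against 3 arrays cannot go below p = 0.1, which those non-overlapping genes reached.

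The arrays formed a graded order that was nearly the same for every gene. Relative to the mean of control replicates 2 and 3, the median over the 53 genes was 1.70 in transgenic replicate 1, 1.10 in transgenic replicate 2 and 1.56 in transgenic replicate 3. It was 1.06 in control replicate 1, so this array lay at about the height of transgenic replicate 2. Control replicates 2 and 3 were close together, with a median absolute difference of 0.0825. Control replicate 1 was above both of them for all 53 genes, as it was for 39.2% of all genes. It also exceeded transgenic replicate 2 for 17 of the 52 genes with higher means, and transgenic replicates 1 and 3 for 1, Nop56. Transgenic replicate 2 was the lowest of its group for 51 of the 52, against 57% of all genes with a higher mean. All 3 arrays labelled transgenic lay above control replicates 2 and 3 for 52 genes, against 29.5% of all genes. The heat map of the genes by array shows this order.

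**Figure D1:**
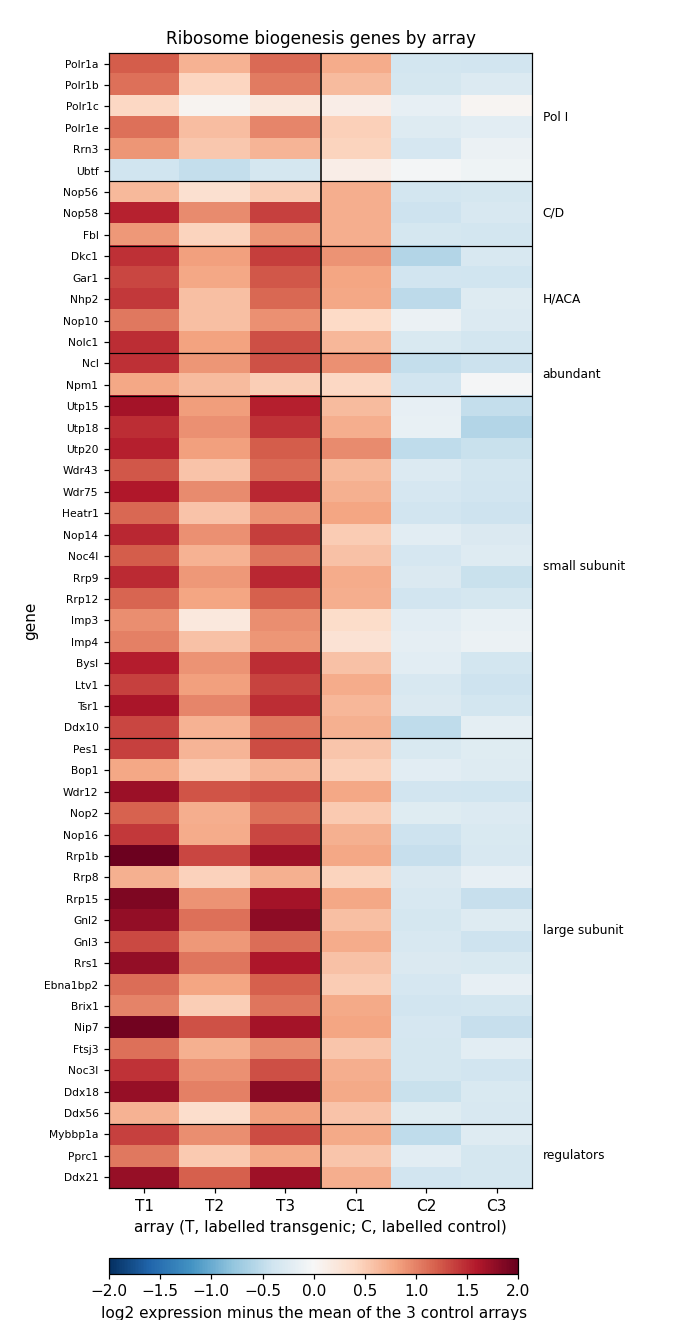
Log2 expression of each of the 53 measured genes (rows, grouped by role) in each array (columns; T1 to T3 labelled transgenic, C1 to C3 labelled control), as the difference from the mean of the 3 control arrays. C1 is above C2 and C3 in every row, and T1 and T3 are the highest arrays in most rows outside Ubtf.

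The calls depended on which arrays entered the fit. Without control replicate 1, 51 genes rose and Ubtf fell, where 13.4% of all genes rose and 14.4% fell, and the median log2 fold change was 1.44. The 21 genes that rose with all arrays had adjusted p values of 0.00248 to 0.01 there. None of the 53 genes passed in limma in either direction without transgenic replicate 1, transgenic replicate 3, control replicate 2 or control replicate 3, where the 21 had adjusted p values of 0.0779 to 0.159. In those fits only 3.31%, 2.62%, 2.39% and 2.39% of all genes rose, in that order. At an unadjusted p under 0.05, 31, 32, 32 and 30 of the 53 genes were higher there, in the same order, and Ubtf was lower in each. The share of all genes past an unadjusted p of 0.05 is not given here. Without transgenic replicate 2, 22 of the 53 genes rose, where 11.0% of all genes rose. The median log2 fold change stayed between 0.93 and 1.44 with any 1 array left out, and the same 52 genes kept higher means.

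The sexes were unevenly spread. Xist together with Kdm5d, Uty and Eif2s3y of the Y chromosome marked transgenic replicate 3 and control replicates 1 and 3 as female and the other 3 arrays as male. Among the females, the median difference over the 53 genes was 1.01, and 1.54 without control replicate 1, and among the males it was 1.41. Within either sex 52 genes had higher means. In a sex-blocked fit 7 genes rose and none fell in limma, where 5.36% of all genes rose and 5.47% fell, and 49 were higher and 1 lower at an unadjusted p under 0.05. Once control replicate 1 was also left out, a setting chosen after the data were seen, 50 rose, where 9.63% of all genes rose.

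**Figure D2:**
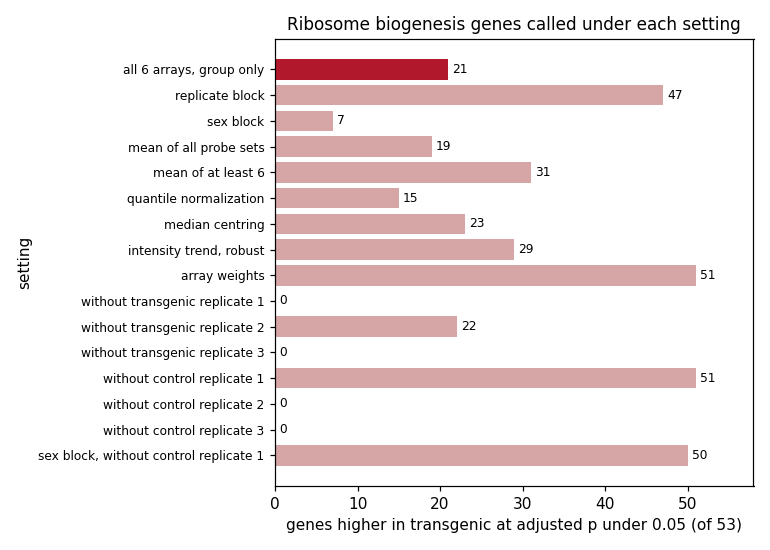
Number of the 53 measured genes past an adjusted p of 0.05 in limma and higher in the arrays labelled transgenic (horizontal axis), for the fit of group alone on all 6 arrays (dark bar) and each other setting (light bars). The count is 21 in the first and runs from 0 to 51 over the settings.

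Promoters of these genes are shown because their transcripts moved together. RefSeq promoter entries (build GRCm38.p6, 250 bases before to 50 bases after the annotated start) matched 49 of the 55 genes by symbol. The letters CACGTG, the E-box bound by MYC with its partner MAX, read the same on both strands. They stood in the promoters of 10 of the 49 genes (20.4%), against 8.09% of all 27025 genes with an entry. These were Imp4, Ltv1, Mybbp1a, Nop2, Pes1, Rrn3, Tsr1, Utp18, Utp20 and Wdr43. Of the 49, 47 were measured, and the 10 are 21.3% of these, against 9.5% of the 15610 genes with an entry that were tested. The letters CCGGAAG, a core bound by ETS-family factors and searched on both strands, stood in 19 of the 49 (38.8%), against 9.93% of all genes with an entry. Among the 47 measured they stood in 17 (36.2%), against 13.6% of the tested genes. The palindromic element bound by BANP stood in none of the 49, against 0.525% of all genes with an entry. Matches are a description of the letters and do not show that a factor binds.

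Of the 19 genes that rose and have a promoter entry, 4 hold CACGTG (21.1%), against 10 of the 47 measured genes with an entry (21.3%). CCGGAAG stood in 7 of those 19 (36.8%), against 17 of the 47 (36.2%). Both shares were thus nearly the same in the genes that rose as in all measured members. The 4 genes that rose and hold CACGTG were Imp4, Nop2, Pes1 and Tsr1. Each sequence below runs 5′ to 3′ from 130 bases before the annotated start over the first 30 bases of the transcript, in GRCm38.p6, and its capitals mark CACGTG and CCGGAAG.
Imp4 (chr1:34439699-34439858, plus strand): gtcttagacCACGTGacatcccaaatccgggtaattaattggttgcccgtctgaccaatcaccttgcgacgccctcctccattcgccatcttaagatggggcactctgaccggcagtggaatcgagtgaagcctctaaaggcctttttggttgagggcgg
Nop2 (chr6:125131753-125131912, plus strand): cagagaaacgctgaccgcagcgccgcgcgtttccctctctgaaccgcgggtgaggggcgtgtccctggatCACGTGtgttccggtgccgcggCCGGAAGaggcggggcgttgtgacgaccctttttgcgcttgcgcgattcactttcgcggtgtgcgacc
Pes1 (chr11:3963845-3964004, plus strand): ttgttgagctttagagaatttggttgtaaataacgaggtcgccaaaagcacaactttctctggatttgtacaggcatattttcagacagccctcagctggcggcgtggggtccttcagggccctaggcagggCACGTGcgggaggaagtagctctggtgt
Tsr1 (chr11:74897950-74898109, plus strand): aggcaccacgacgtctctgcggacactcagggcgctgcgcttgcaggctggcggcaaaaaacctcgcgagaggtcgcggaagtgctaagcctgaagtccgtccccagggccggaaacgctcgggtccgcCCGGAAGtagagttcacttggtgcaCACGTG
The first base of CACGTG lies at -121 and -60 in Imp4 and Nop2, before the start, and at base 3 and base 25 of the transcript in Pes1 and Tsr1. Nop2 and Tsr1 also hold CCGGAAG in this window, and Imp4 and Pes1 do not.

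Of the 6 genes of the RNA polymerase I machinery, 1 rose and 1 fell, where 8.97% of all genes rose and 9.65% fell. With so few genes, 1 call in either direction does not stand apart from those shares. Polr1e, a subunit of the polymerase known as PAF53, measured 8.79, 8.30 and 8.65 in the arrays labelled transgenic, against 8.17, 7.42 and 7.47 in those labelled control. The groups did not overlap, and the log2 fold change of 0.90 ± 0.24 (SE) passed (adjusted p = 0.0473, but 0.0702 in the sex-blocked fit). Ubtf, the upstream binding factor that keeps the ribosomal DNA open for transcription, went the other way, at 9.26, 9.18 and 9.32 in the arrays labelled transgenic, against 9.80, 9.62 and 9.57 in those labelled control. Its groups did not overlap either, with all 3 arrays labelled transgenic below every control, and its log2 fold change was -0.41 ± 0.09 (adjusted p = 0.0295, but 0.0709 in the sex-blocked fit). Control replicate 1 was the highest array of all for Ubtf. Both calls were lost without transgenic replicate 1 or 3 or control replicate 2 or 3, and that of Ubtf also without transgenic replicate 2, with adjusted p reaching 0.156.

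The other 4 had higher means and did not pass with all 6 arrays. Polr1a, the largest catalytic subunit, measured 9.48, 8.95 and 9.40 in the arrays labelled transgenic, against 9.00, 7.90 and 7.89 in those labelled control. The value of transgenic replicate 2 fell just under that of control replicate 1, so the groups overlapped, and the log2 fold change was 1.01 ± 0.33 (adjusted p = 0.0848, 0.0264 with the replicate block, 0.00529 without control replicate 1). Polr1b, the second-largest subunit, had 0.86 ± 0.32 (adjusted p = 0.115, 0.0279 with the replicate block). Rrn3, the initiation factor TIF-IA that brings the polymerase to its promoter, measured 10.46, 10.11 and 10.26 in the arrays labelled transgenic, against 10.03, 9.24 and 9.47 in those labelled control. Its groups did not overlap, yet its log2 fold change of 0.70 ± 0.21 stayed short of the threshold (adjusted p = 0.0717, 0.016 with the replicate block). Polr1c, a subunit that RNA polymerases I and III share, had the smallest difference of the 6, at 0.22 ± 0.13 (adjusted p = 0.29), and did not pass with the block (0.123) or without control replicate 1 (0.19).

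Among the box C/D snoRNP proteins, which carry the enzyme that methylates ribosomal RNA, Nop58 rose. This scaffold protein gene measured 10.56, 9.98 and 10.39 in the arrays labelled transgenic, against 9.75, 8.61 and 8.70 in those labelled control, with a log2 fold change of 1.28 ± 0.33 (SE, adjusted p = 0.0445). Its partner Nop56 measured 11.04, 10.72 and 10.91 in the arrays labelled transgenic, against 11.12, 10.02 and 10.05 in those labelled control. Control replicate 1 was the highest of the 6 arrays for Nop56, and the log2 fold change was 0.49 ± 0.31 (adjusted p = 0.33, 0.156 with the replicate block, 0.00618 without control replicate 1). Fbl, the methyltransferase fibrillarin, measured 10.27, 9.86 and 10.29 in the arrays labelled transgenic, against 10.13, 9.05 and 9.03 in those labelled control. It too overlapped through control replicate 1 and did not pass (log2 fold change 0.73 ± 0.32, adjusted p = 0.173, 0.0767 with the block, 0.0067 without control replicate 1). A second Fbl probe set gave a difference of 0.78.

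Of the box H/ACA genes, whose particles convert uridine to pseudouridine, Nop10 rose, as did Nolc1, a nucleolar chaperone of snoRNPs. Nop10, the smallest core protein, measured 11.25, 10.79 and 11.11 in the arrays labelled transgenic, against 10.58, 10.07 and 9.92 in those labelled control, a log2 fold change of 0.86 ± 0.21 (SE, adjusted p = 0.0367). Nolc1 measured 10.29, 9.62 and 10.11 in the arrays labelled transgenic, against 9.48, 8.51 and 8.45 in those labelled control, a log2 fold change of 1.19 ± 0.32 (adjusted p = 0.0497). For both genes every array labelled transgenic lay above every control. Dkc1, the pseudouridine synthase dyskerin, had 1.22 ± 0.41 (adjusted p = 0.0897), and its core partners Gar1 and Nhp2 had 1.12 ± 0.35 (adjusted p = 0.0776) and 1.05 ± 0.38 (adjusted p = 0.107). These 3 overlapped because control replicate 1 exceeded transgenic replicate 2, and they passed with the replicate block (adjusted p = 0.0218, 0.0231 and 0.0134). The calls of Nop58, Nop10 and Nolc1 were lost without transgenic replicate 1 or 3 or control replicate 2 or 3, with adjusted p reaching 0.159, in the sex-blocked fit (0.0661, 0.0704 and 0.0764) and with repeated quantile normalization (0.0582, 0.0602 and 0.0648). That of Nolc1 was also lost with the mean of all probe sets (adjusted p = 0.05002).

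The abundant nucleolar proteins did not pass with all 6 arrays. Ncl, the pre-ribosomal RNA binding protein nucleolin, measured 12.52, 11.95 and 12.34 in the arrays labelled transgenic, against 11.98, 10.59 and 10.63 in those labelled control. Control replicates 2 and 3 were more than 1 log2 unit below the other 4 arrays, which overlapped, and the log2 fold change was 1.21 ± 0.40 (SE, adjusted p = 0.086, 0.0233 with the replicate block). Npm1, the nucleolar chaperone nucleophosmin, measured 11.34, 11.18 and 11.05 in the arrays labelled transgenic, against 10.97, 10.17 and 10.53 in those labelled control. Its groups did not overlap, by a narrow gap, and the log2 fold change was 0.63 ± 0.21 (adjusted p = 0.0856, 0.0373 with the block). Another 3 probe sets that name Npm1 together with Gm15484 were also higher in every array labelled transgenic than in any control, and since transcripts of near-identical copies cannot be separated on the array, the Npm1 value is uncertain.

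All 16 genes of small-subunit assembly had higher means (median log2 fold change 1.19), 6 rose and 16 rose with the replicate block. Nop14, a core component of the large precursor particle called the small-subunit processome, measured 9.39, 8.80 and 9.26 in the arrays labelled transgenic, against 8.40, 7.67 and 7.59 in those labelled control. The lowest array labelled transgenic lay above the highest control, and the log2 fold change was 1.27 ± 0.26 (SE, adjusted p = 0.0244, 0.0485 in the sex-blocked fit). Imp4, a protein of the U3 snoRNP whose promoter is given above, measured 11.25, 10.83 and 11.13 in the arrays labelled transgenic, against 10.54, 10.07 and 10.12 in those labelled control. It had a smaller difference but tight groups, 0.83 ± 0.17 (adjusted p = 0.0234, 0.0454 in the sex-blocked fit). Bysl, needed for maturation of the small subunit, measured 9.18, 8.51 and 9.08 in the arrays labelled transgenic, against 8.19, 7.40 and 7.24 in those labelled control, a log2 fold change of 1.31 ± 0.30 (adjusted p = 0.0316). Tsr1, which acts on late small-subunit precursors, measured 10.50, 9.84 and 10.35 in the arrays labelled transgenic, against 9.53, 8.57 and 8.49 in those labelled control. At 2.57-fold (1.36 ± 0.32, adjusted p = 0.0344) it was the largest difference of the 16. Wdr75 and Utp15, which belong to the part of the processome that also acts in transcription of the ribosomal DNA, rose by 1.35 ± 0.34 and 1.35 ± 0.34 (adjusted p = 0.0408 and 0.0432). Only Nop14 and Imp4 among these 6 passed in the sex-blocked fit, and all 6 lost their call without transgenic replicate 1 or 3 or control replicate 2 or 3, with adjusted p reaching 0.146. Wdr75 was also lost with repeated quantile normalization (adjusted p = 0.0508).

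The other 10 small-subunit genes were between 0.69 and 1.29 on the log2 scale, with adjusted p values of 0.0508 to 0.141, and of 0.00363 to 0.0446 without control replicate 1. The U3 snoRNP protein gene Rrp9 and the processome gene Utp18 missed the threshold narrowly (log2 fold changes 1.29 ± 0.35 and 1.28 ± 0.35, SE, adjusted p = 0.0508 and 0.0535). Noc4l, the partner of Nop14, Ltv1, which leaves the small subunit late in the cytoplasm, and Rrp12, an export factor, also had groups that did not overlap. Heatr1, a large repeat protein that promotes transcription by RNA polymerase I, measured 10.04, 9.46 and 9.78 in the arrays labelled transgenic, against 9.67, 8.51 and 8.47 in those labelled control. Here control replicate 1 stood above transgenic replicate 2, as it did for Wdr43, Utp20, Imp3 and the helicase gene Ddx10.

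Large-subunit assembly held the genes with the largest differences, Rrp1b and Nip7. All 18 measured genes had higher means (median log2 fold change 1.14), 10 rose, and 16 rose with the replicate block. Rrp1b, a nucleolar factor that also binds chromatin, measured 9.84, 9.21 and 9.57 in the arrays labelled transgenic, against 8.65, 7.42 and 7.56 in those labelled control. It differed most of all 53 genes, at 3.16-fold (log2 fold change 1.66 ± 0.35, SE, adjusted p = 0.0264). Nip7, a conserved factor in processing of the precursor RNA, measured 9.51, 8.85 and 9.25 in the arrays labelled transgenic, against 8.38, 7.25 and 7.12 in those labelled control, 3.08-fold (log2 fold change 1.62 ± 0.36, adjusted p = 0.0306). Gnl2, a nucleolar GTPase that accompanies the large subunit to its export, measured 10.77, 10.11 and 10.79 in the arrays labelled transgenic, against 9.60, 8.66 and 8.75 in those labelled control. It had the lowest p of the 53 genes (1.55 ± 0.31, adjusted p = 0.022, 0.0364 in the sex-blocked fit). Rrs1, which helps to install the particle carrying the 5S ribosomal RNA, measured 8.15, 7.46 and 8.01 in the arrays labelled transgenic, against 6.98, 6.12 and 6.10 in those labelled control. Its lowest array labelled transgenic was clear of the highest control, and the log2 fold change was 1.48 ± 0.30 (adjusted p = 0.0227).

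Pes1, Bop1 and Wdr12 form 1 complex that is required for processing of the large-subunit RNA, and of these Bop1 did not pass. Wdr12 measured 9.84, 9.40 and 9.45 in the arrays labelled transgenic, against 8.91, 7.76 and 7.75 in those labelled control, a log2 fold change of 1.42 ± 0.34 (SE, adjusted p = 0.0351). Its second probe set had a difference of 1.63. Pes1 measured 9.98, 9.29 and 9.92 in the arrays labelled transgenic, against 9.17, 8.30 and 8.37 in those labelled control, a log2 fold change of 1.12 ± 0.29 (adjusted p = 0.047). Bop1 measured 9.97, 9.72 and 9.88 in the arrays labelled transgenic, against 9.67, 8.98 and 8.95 in those labelled control, and with 0.66 ± 0.21 it stayed short (adjusted p = 0.0786, 0.0315 with the replicate block), although its groups did not overlap. The difference between the 3 genes was not tested.

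Another 4 large-subunit genes rose. Ddx18, an RNA helicase gene, measured 10.86, 10.13 and 10.92 in the arrays labelled transgenic, against 9.88, 8.67 and 8.81 in those labelled control, a log2 fold change of 1.52 ± 0.37 (SE, adjusted p = 0.0398), and 1.26 in its other probe set. Nop2, which methylates a cytosine of the large ribosomal RNA and whose promoter is given above, rose by 1.01 ± 0.25 (adjusted p = 0.0385). Ebna1bp2, an assembly factor, and Noc3l, a nucleolar complex protein, rose by 1.03 ± 0.24 and 1.21 ± 0.33 (adjusted p = 0.0337 and 0.0497). Rrp1b, Gnl2, Rrs1 and Ebna1bp2 passed in the sex-blocked fit (adjusted p = 0.0493, 0.0364, 0.0442 and 0.0416). The 10 calls were lost without transgenic replicate 1 or 3 or control replicate 2 or 3, with adjusted p reaching 0.159, and Wdr12 and Noc3l were also lost without transgenic replicate 2. With repeated quantile normalization Pes1, Nop2 and Noc3l were lost (adjusted p = 0.0537, 0.0511 and 0.0605), and with the mean of all probe sets Noc3l (0.05003). The remaining 7 apart from Bop1 were Rrp15, Nop16, the nucleostemin gene Gnl3, Ftsj3, Brix1, Rrp8, which methylates an adenine of the large ribosomal RNA, and the helicase gene Ddx56. Their log2 fold changes ran from 0.62 in Ddx56 to 1.48 in Rrp15 (adjusted p = 0.157 and 0.0504). Brix1 and Ddx56, which overlapped through control replicate 1, were also the 2 large-subunit genes that did not pass with the replicate block (adjusted p = 0.0621 and 0.0912). The probe set naming both Ppan and B130055M24Rik had 8.87, 8.74 and 8.59 in the arrays labelled transgenic, against 8.64, 8.23 and 8.22 in those labelled control, and was left out of the counts.

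Of the 3 genes grouped as regulators, Ddx21 rose. This helicase, which couples transcription and processing of ribosomal RNA, measured 11.38, 10.84 and 11.33 in the arrays labelled transgenic, against 10.37, 9.27 and 9.29 in those labelled control. The difference was 2.91-fold (log2 fold change 1.54 ± 0.33, SE, adjusted p = 0.0272, up to 0.104 without transgenic replicate 1 or 3 or control replicate 2 or 3). Mybbp1a, a Myb-binding protein of the nucleolus, measured 10.64, 10.19 and 10.56 in the arrays labelled transgenic, against 10.02, 8.76 and 9.01 in those labelled control. Its groups did not overlap, and its log2 fold change of 1.20 ± 0.34 stayed short (adjusted p = 0.0568, 0.0167 with the replicate block). Pprc1, a coactivator related to PGC-1, had 0.78 ± 0.26 (adjusted p = 0.0932, 0.018 with the block). The plot of differences per gene gives all 53 side by side.

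**Figure D3:**
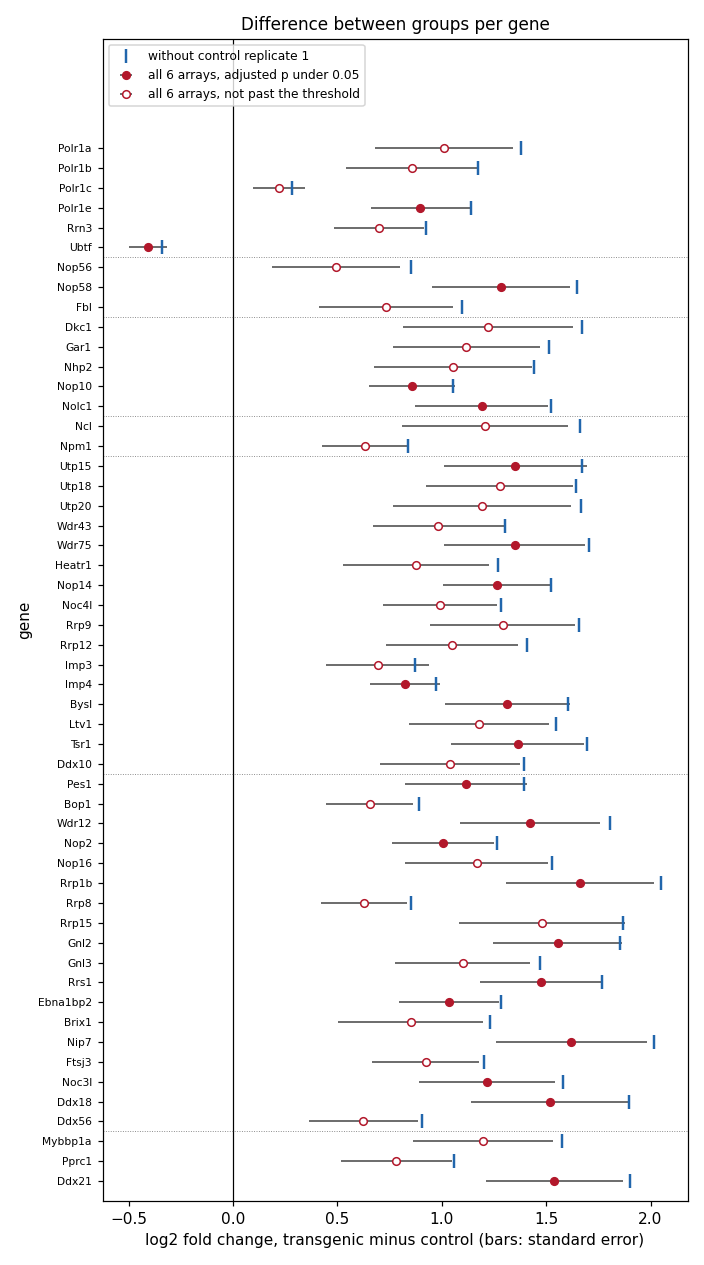
Log2 fold change of each of the 53 genes, transgenic minus control (horizontal axis; points with standard error bars, all 6 arrays; filled where adjusted p is under 0.05 in limma), with the fold change without control replicate 1 as a blue tick. Ubtf is the only point below 0, and every blue tick, that of Ubtf included, lies to the right of its point.

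Other genes of the pathway, listed by role in 8 lists that share no gene with the 55, had more calls upwards than downwards. These lists too were chosen with earlier results of these data known. Of 165 measured genes 44 rose and 6 fell with all 6 arrays, where 8.97% of all genes rose and 9.65% fell. The counts were 88 and 8 with the replicate block, against 12.7% and 13.1% of all genes, and 102 and 11 without control replicate 1, against 13.4% and 14.4%. In the sex-blocked fit 21 rose and 2 fell, against 5.36% and 5.47%. Of 40 further small-subunit factors 16 rose and 1 fell (median log2 fold change 0.84). Krr1 and Utp23, both processome proteins, rose by 1.31 ± 0.23 and 1.16 ± 0.21 (SE, adjusted p = 0.016 and 0.0166) and Utp11 by 0.67 ± 0.13 (adjusted p = 0.0193). Rrp36, whose yeast counterpart acts in early cleavage of the precursor RNA, was the 1 that fell, with -0.45 ± 0.08 (adjusted p = 0.0172). Of 33 further large-subunit factors 13 rose and none fell in limma, and no gene was lower at an unadjusted p under 0.05 since all 33 had higher means (median log2 fold change 0.58). Las1l, which takes part in cleavage of a spacer of the precursor RNA, measured 10.05, 8.90 and 10.00 in the arrays labelled transgenic, against 7.89, 7.48 and 7.59 in those labelled control. It had the largest difference of all the genes named here that build ribosomes (2.00 ± 0.32, adjusted p = 0.0133). Eif6, which keeps the large subunit from joining the small one too early, rose by 0.54 ± 0.08 (adjusted p = 0.0105), Gnl3l by 0.58 ± 0.08 (adjusted p = 0.00804) and Mak16 by 0.80 ± 0.15 (adjusted p = 0.0196). Gnl3l and Eif6 kept their call with any 1 array left out (adjusted p no higher than 0.0443 and 0.0487), and the other 6 of these 8 lost it without transgenic replicate 3 or control replicate 2 or 3, all but Las1l of the 6 also without transgenic replicate 1, with adjusted p reaching 0.0812. In the sex-blocked fit 7 of the 8 passed and Utp11 did not (adjusted p = 0.0527).

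Of 14 further RNA polymerase I genes 3 rose and none fell in limma, 3 and 0 at an unadjusted p under 0.05, a share of 21.4% that rose, against 8.97% of all genes (median log2 fold change 0.25). They were Taf1a, a subunit of the promoter selectivity factor, at 1.67 ± 0.33 (SE, adjusted p = 0.0227), and the subunit genes Polr1d and Twistnb at 0.80 ± 0.20 and 1.23 ± 0.32 (adjusted p = 0.0421 and 0.0468). Taf1a measured 11.02, 9.94 and 10.97 in the arrays labelled transgenic, against 9.37, 8.69 and 8.84 in those labelled control, so its lowest array labelled transgenic was clear of every control. Of 19 RNA polymerase III genes, which serve transfer RNAs among others, 2 rose and 1 fell (median 0.14), and the 10.5% that rose was near the 8.97% of all genes. Those that rose were the subunit genes Polr3g and Polr3d, at 1.08 ± 0.19 and 1.28 ± 0.25 (adjusted p = 0.0171 and 0.0205), and the 1 that fell was Gtf3c1, the largest subunit of the initiation factor TFIIIC, at -1.21 ± 0.26 (adjusted p = 0.0275).

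In the RNase MRP and RNA exosome list, whose products trim precursor RNA, 3 of 20 genes rose and 2 fell, or 11 and 3 with the replicate block (median log2 fold change 0.64). Of all genes 8.97% rose and 9.65% fell, and 12.7% and 13.1% with the block. The share of this list that fell was thus near that of all genes in both fits. Pop1 and Pop7 rose by 1.28 ± 0.27 and 0.93 ± 0.21 (SE, adjusted p = 0.0261 and 0.0319), and Rpp25 and the exosome gene Exosc7 had -0.46 ± 0.10 and -0.38 ± 0.09 (adjusted p = 0.0284 and 0.0341). Of 11 snoRNP assembly factors 2 rose, or 8 with the block (median 0.64), namely Naf1, which assembles H/ACA particles, at 1.66 ± 0.38 and Snu13, a core protein of C/D particles, at 0.78 ± 0.20 (adjusted p = 0.0316 and 0.0416). Of 17 purine and pyrimidine synthesis genes 4 rose, or 10 with the block (median 0.52). Prps1, which makes the ribose phosphate precursor of nucleotides, rose by 0.84 ± 0.12 (adjusted p = 0.0105, and up to 0.0479 with 1 array left out). Impdh1 of guanine nucleotide synthesis rose by 0.84 ± 0.17, Ctps, the CTP synthase, by 1.20 ± 0.27 and Adss of adenine nucleotide synthesis by 0.48 ± 0.11 (adjusted p = 0.0234, 0.0319 and 0.0307). Besides Prps1, the genes named in these polymerase, RNase, snoRNP and nucleotide lists lost their call without transgenic replicate 3 or control replicate 3, and 14 of these 15 without transgenic replicate 1, 14 without control replicate 2 and 3 without transgenic replicate 2, with adjusted p reaching 0.155. In the sex-blocked fit Taf1a, Polr1d, Polr3g, Polr3d, Gtf3c1, Pop7 and Prps1 passed. The other 9 of the named genes did not, namely Twistnb, Naf1, Snu13, Pop1, Rpp25, Exosc7, Impdh1, Adss and Ctps (adjusted p = 0.0506 to 0.0762).

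In the MYC and MAX network, the transcription factors that read the E-box, 1 of 11 genes rose (9.09%) and 2 fell, where 8.97% of all genes rose and 9.65% fell, so the share that rose was that of the background. Myc measured 11.93, 10.90 and 11.52 in the arrays labelled transgenic, against 10.23, 9.06 and 9.67 in those labelled control. The groups did not overlap, control replicate 1 was again the highest control, and the log2 fold change was 1.79 ± 0.37 (SE, adjusted p = 0.0245, 0.0403 in the sex-blocked fit). Mxi1, a repressor that competes for MAX, measured 7.52, 8.32 and 7.81 in the arrays labelled transgenic, against 8.55, 9.76 and 9.23 in those labelled control, the lowest values being those of the arrays labelled transgenic, with a log2 fold change of -1.30 ± 0.34 (adjusted p = 0.048, 0.0569 in the sex-blocked fit). Mycl had -0.45 ± 0.09 (adjusted p = 0.0233, 0.0604 in the sex-blocked fit). These 3 lost their call without transgenic replicate 1 or 3 or control replicate 2 or 3, with adjusted p reaching 0.151. The common partner Max was at -0.34 ± 0.32 (adjusted p = 0.529) and Mycn at -0.38 ± 0.22 (adjusted p = 0.282). Mxd1, Mxd3 and Mxd4 were at -0.04, -0.15 and -0.48, Mnt at 0.24, Mga at 0.22 and Mlx at -0.27, and none of these 6 passed (adjusted p = 0.129 to 0.958). Max and Mxd4 passed without control replicate 1 (adjusted p = 0.0345 and 0.0151).

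Markers of cell types moved with some of these values. For comparison, 8.97% of all genes rose and 9.65% fell with all 6 arrays, and 12.7% and 13.1% with the replicate block. Without control replicate 1 the shares were 13.4% and 14.4%. Of 13 proliferating cell markers none passed in limma in either direction with all 6 arrays (0 higher and 3 lower at an unadjusted p under 0.05, 2 higher and 2 lower with the replicate block, and 5 were higher without control replicate 1). Relative to control replicates 2 and 3, their median was 0.52, -0.0049 and 0.30 in the arrays labelled transgenic, against 0.79 in control replicate 1, which was the highest array. Their summed linear signal was 12543 to 16771 in the arrays labelled transgenic, against 11387 to 20389 in those labelled control. Of 12 villus enterocyte markers none passed in limma with all 6 arrays (0 higher and 2 lower at an unadjusted p under 0.05), and 7 were lower with the replicate block. Their median was -1.56, -0.29 and -0.74 in the arrays labelled transgenic, against -0.87 in control replicate 1, and their summed linear signal was 48229 to 102198 in the arrays labelled transgenic, against 71579 to 128517 in those labelled control. Control replicate 1 thus stood apart from the other controls in ribosome biogenesis, proliferation and villus transcripts alike. The part of these cell markers in the differences of the ribosome biogenesis genes was not tested.

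Markers of crypt base stem cells went the other way from the ribosome biogenesis genes, with 3 of 5 lower and medians of -1.11, -1.05 and -1.19 in the arrays labelled transgenic, against -0.10 in control replicate 1. Their summed linear signal was 1331 to 1791 in the arrays labelled transgenic, against 6972 to 8011 in those labelled control. In the controls this sum rests mostly on 1 gene, Olfm4. It was at 8.62 to 10.05 in the arrays labelled transgenic, against 12.35 to 12.68 in those labelled control. Lgr5 and Smoc2 had -0.84 and -0.26 and did not pass in limma (adjusted p = 0.154 and 0.614). Of 11 T cell and intraepithelial lymphocyte markers 10 fell and none rose, 11 and 0 at an unadjusted p under 0.05 in limma, and 10 fell without control replicate 1. In the sex-blocked fit 7 fell, and 5 when control replicate 1 was also left out. The leukocyte gene Ptprc measured 6.60, 7.45 and 7.00 in the arrays labelled transgenic, against 8.69, 8.06 and 8.02 in those labelled control, and the T cell receptor component Cd3e 7.14, 8.05 and 7.59 in the arrays labelled transgenic, against 9.17, 8.88 and 8.78 in those labelled control. Ptprc lost its call in the sex-blocked fit (adjusted p = 0.0719) and Cd3e kept it (0.0483), and with 1 array left out their adjusted p reached 0.102 and 0.0718, both without transgenic replicate 3. The summed linear signal of this list was 994 to 2248 in the arrays labelled transgenic, against 5002 to 8004 in those labelled control. Of 9 epithelial markers 2 rose and 3 fell in limma. Krt18 rose by 1.47 ± 0.12 and Cdh1 by 0.32 ± 0.08 (SE, adjusted p = 0.00221 and 0.0432). Cdx2 was lower at -0.82 ± 0.15 and Cdx1 at -0.53 ± 0.13 (adjusted p = 0.017 and 0.0374). The microvillus gene Vil1 was also lower, at -0.80 ± 0.21 (adjusted p = 0.0453, 0.0709 in the sex-blocked fit and up to 0.148 without control replicate 2). In the sex-blocked fit 1 epithelial marker rose, Krt18, and 1 fell, Cdx2. The epithelial list had a summed linear signal of 51029 to 55435 in the arrays labelled transgenic, against 48350 to 51880 in those labelled control. Of 4 B and plasma cell, 8 myeloid and 4 endothelial markers none passed in limma (1 myeloid marker was higher at an unadjusted p under 0.05). Of 8 fibroblast and muscle markers only Vim fell, at -0.89 ± 0.18 (adjusted p = 0.025, 0.0523 in the sex-blocked fit). The part of these lists in the results was not tested either.

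**Figure D4:**
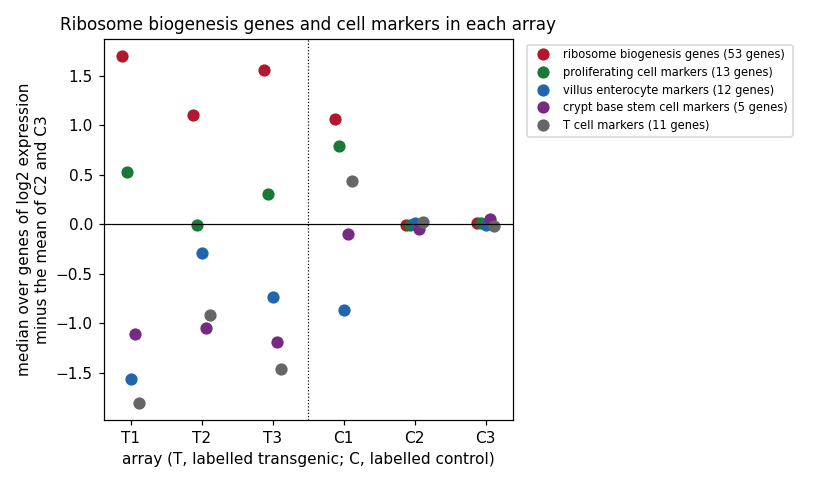
Median over the genes of each list of log2 expression minus the mean of control replicates 2 and 3 (vertical axis) in each array (horizontal axis; T1 to T3 labelled transgenic, C1 to C3 labelled control), with each point 1 list in 1 array. The 53 ribosome biogenesis genes stand at 1.70, 1.10 and 1.56 in T1 to T3, against 1.06 in C1, where the proliferating cell markers stand at 0.79 and the villus markers at -0.87.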

How the data were processed

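Total RNA of jejunal epithelial cells from 6 mice was hybridised to Affymetrix Gene 1.0 ST arrays. The authors deposited log2 expression values for each probe set and array. Their log scale is taken from the range of the values, and the tools Partek and RMA are named without versions in the submitters' processing notes. RMA equalises arrays, so a global change in RNA amount is removed. They carry no coordinates, with the genome build not given in the sources used here.

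Of 28350 probe sets 21780 named 1 gene, 1618 several and 4952 none here. Gene identifiers of 21689 were found in RefSeq (GRCm38.p6), whose symbols were used, giving 19933 genes. The comparison used R 4.3.3 and limma 3.58.1 (two-sided moderated test of lmFit and eBayes, Benjamini-Hochberg over all genes). The fit was also run on data simulated with independent noise for each gene and array. Such data hold no shift shared by many genes of 1 array, so they do not bear on that of control replicate 1. Dim probe sets were kept. Standard errors are the moderated ones.

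The labels call the arrays biological replicates. Same-numbered arrays deviated together from their group means, with correlations over all genes of 0.52, 0.41 and 0.13 for numbers 1, 2 and 3, but transgenic replicate 2 with control replicate 3 reached 0.32. All same-numbered pairs being over 0.1, the replicate block is given beside results it changes. Such deviations sum to 0 within a group, and the labels do not tie a number to a litter or day. The genes and lists were chosen with earlier results of these data known. Named besides them were the 4 lowest p values past the threshold in each pathway list, the whole MYC and MAX network, and checks of labels, sex and tissue. The alternatives were a replicate block, a sex block, leaving out each array, the mean of all probe sets, a filter at a mean of 6, repeated quantile normalization, median centring, an intensity trend, array weights and other thresholds.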

Additional observations from a re-analysis of the deposited data

How the results depend on the processing

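The count of ribosome biogenesis genes that rose, 21 with all 6 arrays, was 47 with the replicate block, 7 with the sex block, 51 with array weights, 50 with the sex block and without control replicate 1, 0 at an adjusted p under 0.01 and 42 at one under 0.1. With 1 array left out it ran from 0 to 51, and fewer arrays also give less power. It stayed within 1.5 times under the other settings (15 with repeated quantile normalization, 31 with the filter on the mean). All 21 remained with the replicate block, array weights, the mean filter, median centring and the intensity trend. The count that fell, 1, was 0 with the sex block with or without control replicate 1, with the intensity trend and at an adjusted p under 0.01, and 0 to 1 with 1 array left out. The median log2 fold change of 1.10 was 1.42 with array weights, 1.47 with the sex block and without control replicate 1, and 0.93 to 1.44 with 1 array left out. Control replicate 1 had the lowest array weight, 0.327, against 1.95 and 1.78 for control replicates 2 and 3. The fit with array weights is therefore not independent of the fit without control replicate 1, where 51 genes rose and the median was 1.44. Of all genes 1787 rose and 1923 fell, against 1068 and 1091 with the sex block, 3630 and 3442 with array weights, 395 and 406 at an adjusted p under 0.01, 2729 rising at one under 0.1, and 476 to 2663 and 476 to 2879 with 1 array left out. None of the 53 genes changed direction under any of these settings. Mxd1, at -0.04, was at 0.076 with quantile normalization and between -0.51 and 0.20 with 1 array left out, above 0 without transgenic replicate 1 (0.15), control replicate 2 (0.20) or control replicate 3 (0.17). Epcam, at -0.03, was at 0.13 with quantile normalization and between -0.090 and 0.046 with 1 array left out, above 0 without transgenic replicate 1. The cause of these shifts was not tested.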
